A study of Mus musculus with 120 samples.

Results

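The comparison described here set the posterior region of the mouse embryo at E7.5 against the epiblast at E6.5. Between these stages the single sheet of pluripotent epiblast gives rise to the primitive streak at its posterior side, and cells that pass through the streak become mesoderm and endoderm while the body axis starts to extend from its caudal end. Wnt, Nodal, BMP and FGF signals pattern this process, the T-box factors T, Eomes and Tbx6 act in the streak and its mesoderm, and Hox genes of the 3′ end of each cluster are switched on first in the posterior embryo. All genes of the deposited embryo count table with at least 10 reads in 2 of the 4 libraries of the 2 groups were taken, which gave 12153 of the 23154 genes of the table. Of the rest, 3309 genes had no read in any of the 4 libraries and 7692 had reads below that limit. At the edge of the rule, 191 genes had exactly 10 reads as their second highest count and were taken, and 192 genes had 9 and were not.

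The posterior libraries (E7.5 P, 7.5 days post coitum, n = 2) and the epiblast libraries (E6.5 Epi, 6.5 days post coitum, n = 2) were polyA RNA from embryos of ICR mice, an outbred strain, with no mutation or treatment in either group. Embryos were dissected by hand into extra-embryonic and embryonic parts, and at E7.5 the embryonic part was divided further into regions named P, A and AM; the E6.5 embryonic part was left whole and is named Epi. So E7.5 P is 1 region of the embryo and E6.5 Epi is the whole embryonic part, and stage and region changed together in this comparison. Regions A and AM of the same stage, and region P of E7.0 embryos, also with 2 libraries each, were used to set the values in context. Nothing in the labels says that replicates came from separate embryos, so the p-values measure the spread between these libraries.

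The 4 libraries held 10.3 M and 11.6 M counts in E7.5 P and 10.2 M and 11.9 M in E6.5 Epi, within the range of 5.15 M to 17.1 M over the 18 embryo libraries. The Y-linked genes Ddx3y, Eif2s3y, Kdm5d and Uty were present in replicate 1 and at 0 counts in replicate 2 of both groups. Xist, which is transcribed from the inactive X chromosome, ran the other way, at 3.08 and 61.05 CPM in E7.5 P and 6.34 and 193 CPM in E6.5 Epi. Each group thus held 1 library with and 1 library without Y-linked RNA, and none of these 5 genes passed the test between the groups. Levels are CPM, the counts of a gene per M counts of its library, with totals scaled by the trimmed mean of M values (TMM), and are compared here between samples of 1 gene, not between genes, since CPM is not divided by length. Log2 fold changes are E7.5 P over E6.5 Epi from edgeR's quasi-likelihood test over all 18 libraries, given with their standard error and with the p-value adjusted by the Benjamini-Hochberg method over the 12153 genes; a gene is called at an adjusted p under 0.05.

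Of the 12153 genes, 87 were called higher in E7.5 P (0.716%) and 47 were called lower (0.387%), 1.1% in all. Counts of calls in the gene lists below are to be set beside these shares. The changes were large: 54 of the 87 rises and 24 of the 47 falls were at least 8-fold, and the median size among the 134 called genes was 3.69 on the log2 scale, while the median log2 fold change over all genes was 0.03. All 134 had no overlap between the libraries of the groups, as did 42.7% of all genes. Of the rises, 31 passed the count limit only through the posterior libraries, and 13 of the falls only through the epiblast libraries, so those genes had to differ. At an unadjusted p under 0.05 there were 1327 genes. In such pieces of tissue, fewer cells of a type and less RNA per cell cannot be told apart. The count of calls rested on having 2 libraries on each side. Without E7.5 P replicate 1 it was 12 higher and 2 lower, and without E7.5 P replicate 2 it was 43 and 15. Without E6.5 Epi replicate 1, and likewise without E6.5 Epi replicate 2, it was 0 higher and 3 lower; each of these fits took the lone library to vary like the other groups. Of the genes named below, Skil, Gclm, Dnmt3a, Smad7, Amot, Enpp2, Bcar3, Ddx4, Slc25a33, Foxd3, Aldh1a2, Fgfr1, Gdf3, B2m, Apela and Slc22a18 were not called with scaling by total counts. Notum, Slc25a33, Pga5, Foxd3, Aldh1a2, Dnmt3l, Fgfr1, Hoxb3, Foxc1, Foxc2, Gdf3, Cdx2 and Slc22a18 were not called with the filterByExpr limit on counts. Notum and Hoxb3 did not meet a limit of 20 counts, and Nkx1-2, Msgn1 and Aldh1a2 were not called in a fit of the compared libraries alone.

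**Figure D1:**
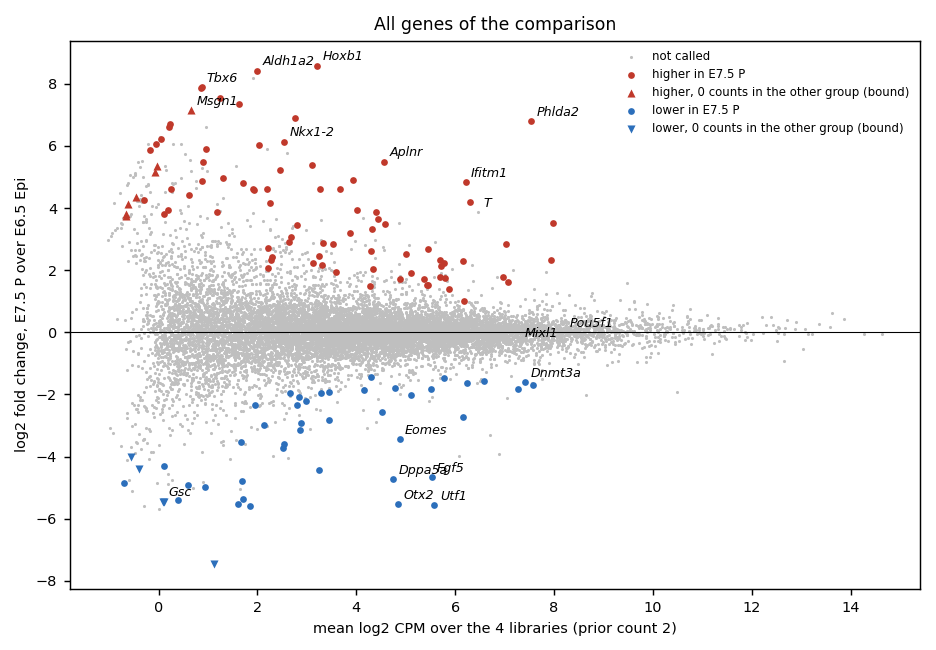
Each point is 1 of the 12153 genes, with its mean log2 CPM over the 4 libraries on the horizontal axis and its log2 fold change of E7.5 P over E6.5 Epi on the vertical axis. The 87 genes called higher are red and the 47 called lower are blue, and triangles are called genes with no read in the other group, drawn at the bound that 3 counts over that group would give. Among genes with a mean log2 CPM of at least 3, Hoxb1 and Phlda2 are the highest of the called genes and Otx2 and Utf1 the lowest; genes at lower levels lie beyond some of them, and Pou5f1 lies at 0.

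Among genes with a mean log2 CPM of at least 3, the 12 largest rises were Hoxb1, Phlda2, Aplnr, Car3, Alox15, Ifitm1, Lhfpl2, Meis2, Ccnd2, Pdgfra, Sp8 and Cxx1c. Hoxb1, a homeobox gene at the 3′ end of its cluster that is first expressed in the posterior streak region (chr11:96365746-96368254), stood at 234 and 100.1 CPM in E7.5 P, against 0.679 and 0.196 CPM in E6.5 Epi. Both posterior libraries were far above both epiblast libraries, and the log2 fold change was 8.59 ± 1.26 (adjusted p = 0.00596). The gene met the count rule through the posterior libraries alone, so it had to be higher there. Phlda2, a maternally expressed imprinted gene best known as a brake on placental growth (chr7:143501545-143503145), had 967 and 3286 CPM in E7.5 P and 19.1 and 19.0 CPM in E6.5 Epi, a log2 fold change of 6.80 ± 0.91 (adjusted p = 0.0041). Aplnr, the receptor for the peptides apelin and Elabela that is expressed in early mesoderm (chr2:85136360-85139923), had 159 and 172 CPM in E7.5 P and 5.55 and 1.86 CPM in E6.5 Epi. Its log2 fold change was 5.49 ± 0.96 (adjusted p = 0.0179), and its 2 posterior libraries were close together. Ifitm1, an interferon-induced membrane protein that is known from the posterior mesoderm and the germ line, had 369 and 428 CPM in E7.5 P and 16.8 and 11.2 CPM in E6.5 Epi. Ccnd2, one of the D-type cyclins, had 339.5 and 333 CPM in E7.5 P and 22.1 and 15.1 CPM in E6.5 Epi, whereas its paralogs Ccnd1 and Ccnd3 were not called.

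Genes of the posterior growth zone, the region from which trunk tissue is added, mostly stood higher in E7.5 P. Of 14 listed genes, all within the count rule, 6 were called higher and none lower, beside 0.716% and 0.387% of all genes. Their median log2 fold change was 3.65, beside 0.03 over all genes, and 3 of the 14 entered through the posterior libraries alone. Nkx1-2, a homeobox gene of caudal progenitors (chr7:132596239-132599637), had 91.8 and 17.6 CPM in E7.5 P and 0.340 and 1.17 CPM in E6.5 Epi, a log2 fold change of 6.13 ± 0.91 (adjusted p = 0.00512). Sp8, a zinc finger factor of Wnt target genes (chr12:118846288-118852578), had 126 and 48.9 CPM in E7.5 P and 3.62 and 8.22 CPM in E6.5 Epi, a log2 fold change of 3.88 ± 0.56 (adjusted p = 0.0041). Wnt3a, the ligand that keeps caudal progenitors in the tailbud, had 17.4 and 12 CPM in E7.5 P, and a single read in the 2 E6.5 Epi libraries together. The ratio of its counts was 291, with a 95% counting interval of 51.8 to 11520 (adjusted p = 0.0331).

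Wnt5a, a ligand of non-canonical Wnt signalling, rose by 3.45 ± 0.75 on the log2 scale (adjusted p = 0.0366), at 28.0 and 17.7 CPM in E7.5 P and 2.72 and 1.47 CPM in E6.5 Epi. The caudal homeobox genes Cdx2 and Cdx4 were also called. Cdx2 had 14.6 and 29.0 CPM in E7.5 P, against 0.566 and 1.17 CPM in E6.5 Epi. Cdx4 had 8.39 and 3.52 CPM in E7.5 P and no read in E6.5 Epi, which puts it at least 41.05-fold higher. The third family member, Cdx1, had 40.8 and 3.13 CPM in E7.5 P and 0.453 and 0 CPM in E6.5 Epi, and it missed the threshold (adjusted p = 0.0659). Its 2 posterior libraries lay far apart, with the higher level in replicate 1. Wnt5b and Wnt8a also missed it, at log2 fold changes of 2.05 ± 0.79 and 2.96 ± 0.75. Cyp26a1, which degrades retinoic acid, stood apart from this list at 9.33 and 72.8 CPM in E7.5 P and 403 and 412 CPM in E6.5 Epi (log2 fold change -3.32 ± 0.81, adjusted p = 0.0700). In the fits without E7.5 P replicate 1, E7.5 P replicate 2 and either E6.5 Epi library, 1, 3 and 0 of the 14 genes were called.

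Paraxial mesoderm genes, which mark the tissue that forms somites, were called higher in E7.5 P in 8 of the 13 listed genes within the rule, and none was called lower, beside 0.716% and 0.387% of all genes. Of these 8, 7 met the rule through the posterior libraries alone, so they had to be higher there, and Rspo3 met it through both groups. Lfng, Meox1 and Tcf15 of the same list were below the count limit. The median log2 fold change was 6.62, or 5.91 with genes at 0 reads set to their bound, and 9 of the 13 had enough reads in the posterior libraries alone. Tbx6, a T-box factor needed for paraxial rather than neural fate (chr7:126781483-126785548), had 17.1 and 12.9 CPM in E7.5 P and 1 read in E6.5 Epi. The ratio was 295, with a 95% counting interval of 52.5 to 11670 (adjusted p = 0.00588). Msgn1, a helix-loop-helix regulator of presomitic mesoderm (chr12:11208382-11208948), had 33.2 and 6.001 CPM in E7.5 P and no read in E6.5 Epi, at least 142.5-fold higher (adjusted p = 0.0278). Hes7, the Notch-driven oscillator of the segmentation clock, had 6.85 and 3.78 CPM in E7.5 P and no read in E6.5 Epi, at least 35.8-fold higher. Rspo3, a secreted enhancer of Wnt signalling, had 119 and 49.7 CPM in E7.5 P and 5.66 and 9.49 CPM in E6.5 Epi, a log2 fold change of 3.47 ± 0.64 (adjusted p = 0.0179). In all 4 genes the lower posterior library was above the higher epiblast library, as in all 134 called genes and 42.7% of all genes. For Tbx6, Msgn1 and Hes7 the count rule had all but fixed this.

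Foxc1 and Foxc2, forkhead factors of paraxial mesoderm, each had 1 read in E6.5 Epi, with ratios of 122 (95% counting interval 21.5 to 4863) and 137 (24.2 to 5447). The Notch ligands Dll1 and Dll3 missed the threshold: Dll1 had 40.2 and 40.05 CPM in E7.5 P and 1.36 and 0 CPM in E6.5 Epi (adjusted p = 0.0789), and Dll3 had 35.96 and 94.7 CPM in E7.5 P and 5.66 and 4.50 CPM in E6.5 Epi (adjusted p = 0.0823). Mesp2, the segment boundary factor, overlapped between the groups, at 3.85 and 12 CPM in E7.5 P and 4.76 and 0.587 CPM in E6.5 Epi. No paraxial gene was called in the 3 fits without E7.5 P replicate 1 or without either E6.5 Epi library, and 4 were called without E7.5 P replicate 2.

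The Hox genes that rose were Hoxb1, Hoxb2 and Hoxb3, at the 3′ end of their cluster. Of 39 Hox genes, 6 met the count rule, all 6 through the posterior libraries alone, so they had to be higher there. Of these, 3 were called higher, beside 0.716% of all genes. Hoxb2 had 25.7 and 17.7 CPM in E7.5 P and 2 reads in E6.5 Epi, a ratio of 215 with a 95% counting interval of 59.1 to 1779 (adjusted p = 0.0123). Hoxb3 had 3.94 and 2.09 CPM in E7.5 P and no read in E6.5 Epi, at least 20.4-fold higher (adjusted p = 0.0472). Hoxa2 stood at 14.1 and 5.09 CPM in E7.5 P with no read in E6.5 Epi and missed the threshold (adjusted p = 0.0518). Of the 33 Hox genes below the rule, 22 had no read in either epiblast library and 9 had none in any of the 4. Hoxa3, Hoxa5 and Hoxb4 reached 10 counts in E7.5 P replicate 1 and had 1, 0 and 4 counts in replicate 2.

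**Figure D2:**
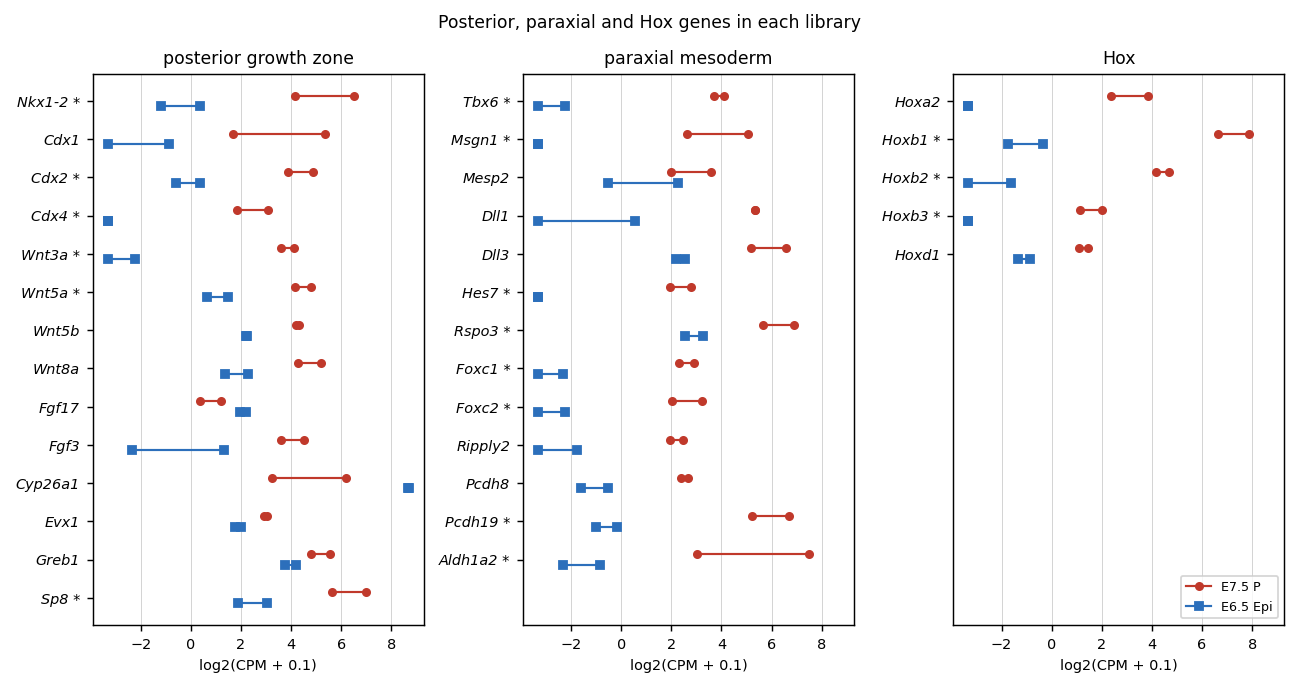
Each row is a gene of the posterior growth zone, paraxial mesoderm and Hox lists that met the count rule, with log2(CPM + 0.1) on the horizontal axis; red circles are the 2 E7.5 P libraries and blue squares the 2 E6.5 Epi libraries, joined by a line, and an asterisk marks a called gene. Called genes have both posterior libraries to the right of both epiblast libraries, and Cdx1 and Aldh1a2 show the widest gaps between the posterior replicates.

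To set sequence beside these genes, the 250 bases before the start of T, Msgn1, Tbx6, Sp5 and Axin2 were read. These are genes of T-box and Wnt responses in this tissue, and the bases came from RefSeq (GRCm38.p6, the patch release of mm10). Both strands were searched for the TCF/LEF motif CTTTGAA or CTTTGAT, bound by the factors of canonical Wnt signalling, and for the T-box motif AGGTGTNA. The windows of Msgn1, T and Sp5 held a match, and those of Tbx6 and Axin2 held none. The windows with a match are shown 5′ to 3′ on the strand of the gene, with each match in capitals.
Msgn1 (chr12:11208949-11209198, minus strand): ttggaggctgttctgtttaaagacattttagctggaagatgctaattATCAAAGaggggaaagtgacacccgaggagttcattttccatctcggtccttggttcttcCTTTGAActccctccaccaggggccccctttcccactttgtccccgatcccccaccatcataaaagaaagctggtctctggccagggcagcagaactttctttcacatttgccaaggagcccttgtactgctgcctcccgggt
T (chr17:8434173-8434422, plus strand): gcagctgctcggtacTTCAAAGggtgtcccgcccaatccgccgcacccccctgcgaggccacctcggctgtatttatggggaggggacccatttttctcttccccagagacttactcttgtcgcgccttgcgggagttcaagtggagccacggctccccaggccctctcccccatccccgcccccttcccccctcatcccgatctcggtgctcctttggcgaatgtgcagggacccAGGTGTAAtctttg
Sp5 (chr2:70474673-70474922, plus strand): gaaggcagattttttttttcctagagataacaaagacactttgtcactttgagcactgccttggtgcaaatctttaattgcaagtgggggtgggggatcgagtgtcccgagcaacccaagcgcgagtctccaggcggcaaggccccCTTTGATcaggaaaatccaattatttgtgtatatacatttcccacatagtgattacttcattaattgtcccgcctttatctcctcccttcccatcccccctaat

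In Msgn1 the matches were 2 TCF/LEF motifs, 1 on each strand, at bases -203 to -197 and -143 to -137 counted from the start. In T a TCF/LEF motif lay at -235 to -229 and a T-box motif at -14 to -7, and in Sp5 a TCF/LEF motif lay at -104 to -98. The TCF/LEF motif was in 9 of the 57 called rises that had a window (15.8%), 2 of the 31 called falls (6.45%), and 6.40% of the 9290 genes of the comparison with a window, beside 8.63% of 27025 genes with a window in all. The table gives 1 start or more for a gene, which need not be the outermost one. The T-box motif was in 1 of the 57 rises and none of the 31 falls, beside 2.44% of the genes of the comparison and 3.12% of all genes with a window. A match is a stretch of letters and not a measured binding site.

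The primitive streak list did not move as 1 group. Of its 13 genes within the rule, none was called higher, 2 were called lower, and the median log2 fold change was -0.33. T, also called Brachyury, the T-box factor of streak and notochord (chr17:8434423-8442496), had the largest positive log2 fold change of the list, with 260.5 and 441.5 CPM in E7.5 P and 31.6 and 16.7 CPM in E6.5 Epi. The posterior libraries lay above both epiblast libraries, but the log2 fold change of 3.86 ± 1.03 missed the threshold (adjusted p = 0.104). Mixl1, a homeobox factor of nascent mesendoderm, overlapped, at 161 and 123 CPM in E7.5 P and 207 and 151 CPM in E6.5 Epi. Mixl1 RNA was thus present in both epiblast libraries.

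Eomes, the T-box factor of early streak and of definitive endoderm (chr9:118478186-118486132), was lower, at 6.08 and 12.1 CPM in E7.5 P and 88.3 and 109 CPM in E6.5 Epi (log2 fold change -3.45 ± 0.63, adjusted p = 0.0188). Gsc, the homeobox gene of the anterior streak (chr12:104471209-104473236), had no read in E7.5 P and 5.10 and 8.22 CPM in E6.5 Epi, at least 43.65-fold lower (adjusted p = 0.0126). It met the count rule through the epiblast libraries alone, so it had to be lower in E7.5 P. Fgf8, which cells need to leave the streak, had 6.51 and 6.13 CPM in E7.5 P and 43.9 and 63.1 CPM in E6.5 Epi, and was not called (adjusted p = 0.105). Neither Gsc nor Eomes was called when any 1 of the 4 libraries was left out. Evx1 was not called either, at 7.53 and 8.09 CPM in E7.5 P and 3.28 and 3.91 CPM in E6.5 Epi.

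Several genes of the epiblast state fell in E7.5 P, while the core factor Pou5f1 overlapped between the groups. Of 20 epiblast and primed pluripotency genes, all within the rule, 6 were called lower and none higher, beside 0.387% and 0.716% of all genes. Their median log2 fold change was -2.04, beside 0.03 over all genes. Foxd3, 1 of the 6, met the rule through the epiblast libraries alone, so it had to be lower in E7.5 P. Otx2, the homeobox factor of the primed epiblast and the anterior neural plate (chr14:48656781-48667644), had 4.71 and 3.52 CPM in E7.5 P and 190.3 and 197 CPM in E6.5 Epi, a log2 fold change of -5.54 ± 0.73 (adjusted p = 0.0041). Utf1, a chromatin factor of pluripotent cells (chr7:139943856-139945112), had 4.54 and 9.78 CPM in E7.5 P and 341 and 327 CPM in E6.5 Epi, a log2 fold change of -5.56 ± 0.74 (adjusted p = 0.0041). Fgf5, the standard marker of primed epiblast (chr5:98254184-98277033), had 5.22 and 14.1 CPM in E7.5 P and 269 and 216 CPM in E6.5 Epi (log2 fold change -4.67 ± 0.84, adjusted p = 0.0212). For each of the 3, the 2 epiblast libraries were close together and every posterior library was far below them.

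Foxd3, a forkhead factor of pluripotent cells, had no read in E7.5 P and 2.49 and 4.01 CPM in E6.5 Epi, at least 21.3-fold lower, and Pou3f1 was also called. Pou5f1, which encodes Oct4, had 169 and 468 CPM in E7.5 P and 241 and 394 CPM in E6.5 Epi, and its log2 fold change was 0.00 ± 0.75. Sox2, its partner in pluripotent cells and a neural gene, had 3.60 and 0.783 CPM in E7.5 P and 8.38 and 9.49 CPM in E6.5 Epi (adjusted p = 0.184). Nanog had 18.9 and 31.05 CPM in E7.5 P and 46.0 and 42.5 CPM in E6.5 Epi (adjusted p = 0.646). Without E7.5 P replicate 1 none of the 20 genes was called, and 2 were called without each of the other 3 libraries.

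The other large falls, among genes with a mean log2 CPM of at least 3, were in genes of varied roles. Pga5, a pepsinogen, had 0.856 and 3.52 CPM in E7.5 P and 44.5 and 47.2 CPM in E6.5 Epi (log2 fold change -4.44 ± 0.98, adjusted p = 0.0472). Atp8a1, a flippase of membrane phospholipids, had 3.60 and 4.44 CPM in E7.5 P and 27.3 and 29.4 CPM in E6.5 Epi (log2 fold change -2.82 ± 0.40, adjusted p = 0.0041). Skil, which encodes SnoN, a repressor of Smad proteins and itself a target of Nodal-type signals, had 40.3 and 17.7 CPM in E7.5 P and 229 and 156.5 CPM in E6.5 Epi (log2 fold change -2.72 ± 0.48, adjusted p = 0.0138). Gclm of glutathione synthesis, Enpp2, the enzyme autotaxin, Bcar3 and the mitochondrial carrier Slc25a33 fell by 2.58, 2.02, 1.96 and 1.94 on the log2 scale.

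Of 7 naive pluripotency genes within the rule, Dppa5a alone was called, and it was lower. Dppa5a, an RNA-binding protein of pluripotent cells (chr9:78367052-78368199), had 5.05 and 5.22 CPM in E7.5 P and 115 and 158 CPM in E6.5 Epi, a log2 fold change of -4.73 ± 0.58 (adjusted p = 0.0041). It was the only 1 of the 134 called genes that was called in each of the 4 fits with a library left out. Of 8 DNA methylation genes, Dnmt3a and Dnmt3l of de novo methylation were called lower, and neither was called when any 1 of the 4 libraries was left out. Dnmt3a had 117 and 80.2 CPM in E7.5 P and 293 and 305 CPM in E6.5 Epi (log2 fold change -1.60 ± 0.32, adjusted p = 0.0240). Dnmt3l, the catalytically inactive cofactor, had 0.3425 and 1.70 CPM in E7.5 P and 6.68 and 15.35 CPM in E6.5 Epi (log2 fold change -3.53 ± 0.80, adjusted p = 0.0472). Dnmt3b had 494.5 and 1029 CPM in E7.5 P and 2648 and 3115 CPM in E6.5 Epi and missed the threshold (adjusted p = 0.0527), while the maintenance genes Dnmt1 and Uhrf1 had log2 fold changes of -0.36 ± 0.31 and -0.22 ± 0.42.

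**Figure D3:**
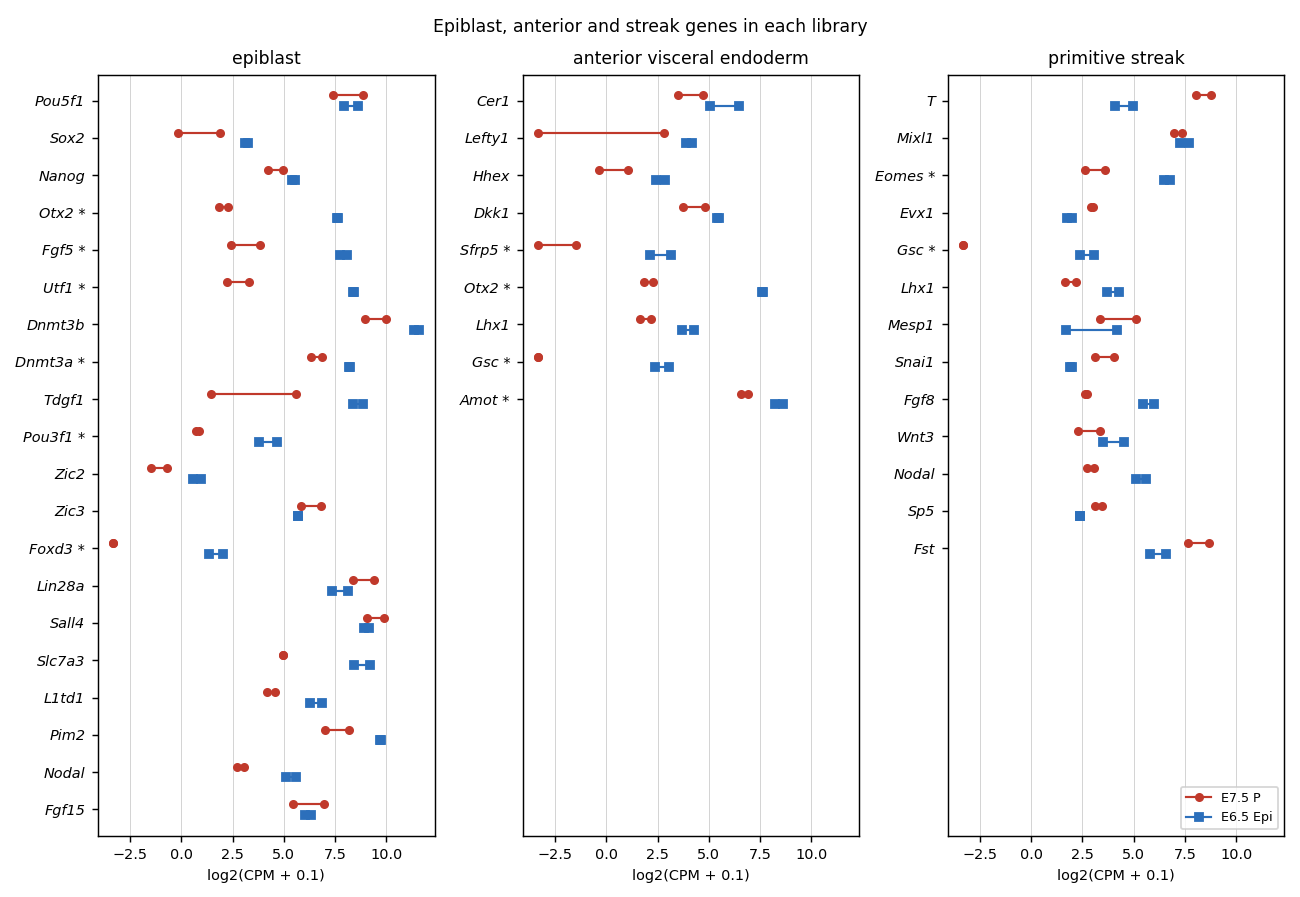
Rows are the epiblast, anterior visceral endoderm and primitive streak genes that met the count rule, with log2(CPM + 0.1) on the horizontal axis, red circles for the 2 E7.5 P libraries, blue squares for the 2 E6.5 Epi libraries and an asterisk for a called gene. Otx2, Fgf5 and Utf1 lie far to the left in E7.5 P, Pou5f1 and Mixl1 overlap, and T lies to the right in E7.5 P without passing the test.

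Markers of tissues that the dissected pieces could also hold were measured in the same libraries. Of 21 visceral endoderm genes, the outer layer that covers the epiblast, none was called, but their summed level was 1691 and 14660 CPM in the 2 E7.5 P libraries and 7815 and 12870 CPM in the 2 E6.5 Epi libraries. In TMM-scaled levels, all 21 were higher in E7.5 P replicate 2 than in replicate 1, by 1.64-fold to 43.6-fold with a median of 5.49-fold. The TMM factors were 1.14 for E7.5 P replicate 1 and 0.663 for replicate 2. Each ratio would thus be smaller by total counts, and the lowest need not stay above equality. None of them was at 0 in any of the 4 libraries. Apoa1 had 122 and 2693 CPM in E7.5 P and 1579 and 2886 CPM in E6.5 Epi, Ttr had 59.25 and 1035 CPM in E7.5 P and 362 and 745 CPM in E6.5 Epi, and Afp had 69.3 and 380 CPM in E7.5 P and 318 and 405 CPM in E6.5 Epi. The part of this tissue in the results was not tested beyond the fits that left out a library.

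All 9 genes of the anterior visceral endoderm list had negative log2 fold changes (median -2.27), and 4 were called lower: Otx2, Gsc, Sfrp5 and Amot. The share called lower over all genes was 0.387%. Gsc and Sfrp5 met the count rule through the epiblast libraries alone, so they had to be lower in E7.5 P. Otx2 and Gsc are also on the epiblast, neural or streak lists. Sfrp5, a secreted Wnt antagonist, had 0.257 and 0 CPM in E7.5 P and 4.30 and 8.90 CPM in E6.5 Epi, a ratio of 0.0229 with a 95% counting interval of 0.00466 to 0.0685. Cer1, the secreted Nodal and Wnt inhibitor that defines this tissue, had 26.3 and 11.2 CPM in E7.5 P and 89.1 and 33.5 CPM in E6.5 Epi (adjusted p = 0.660). Of 12 endoderm and axial mesoderm genes, Gsc alone was called. The endoderm factors Foxa1, Foxa2 and Sox17 were not, with log2 fold changes of 0.44 ± 0.86, -1.09 ± 0.54 and 0.06 ± 1.003.

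Of 11 extra-embryonic ectoderm genes, Cdx2 was called higher and Eomes lower, and both are also genes of the embryo proper. Neither Elf5 nor Tpbpa of that list met the count rule. Of 8 blood and endothelial genes within the rule none was called; Kdr, Tal1 and Etv2 had log2 fold changes of 2.86 ± 1.59, 1.54 ± 1.34 and 0.83 ± 0.78. The germ line list had 1 rise, Ifitm1, and 1 fall, Ddx4, an RNA helicase at 3.68 and 2.35 CPM in E7.5 P and 15.4 and 15.35 CPM in E6.5 Epi. Prdm1 and Dppa3, which mark germ cell precursors, were not called, with log2 fold changes of -0.24 ± 1.04 and -2.66 ± 1.07.

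The mesenchymal genes Pdgfra and Fn1 rose in E7.5 P, and no epithelial gene passed the test. Of 12 mesenchymal genes within the rule 2 were called higher, beside 0.716% of all genes. The median log2 fold change was 2.45, beside 0.03 over all genes. Pdgfra, a growth factor receptor of mesoderm, had 81.7 and 46.8 CPM in E7.5 P and 5.55 and 2.93 CPM in E6.5 Epi (log2 fold change 3.93 ± 0.59, adjusted p = 0.00512). Fn1, the fibronectin gene, had 321 and 381 CPM in E7.5 P and 57.5 and 41.4 CPM in E6.5 Epi (log2 fold change 2.83 ± 0.56, adjusted p = 0.0262). Snai1, Cdh2 and Cdh11 had log2 fold changes of 1.73 ± 0.85, 1.79 ± 0.56 and 2.02 ± 0.67 and were not called. Of 13 epithelial genes 11 had negative values, with a median of -1.02, and none was called. Cdh1, which encodes E-cadherin, overlapped at 135 and 102 CPM in E7.5 P and 104 and 139 CPM in E6.5 Epi, and Epcam had 196 and 317 CPM in E7.5 P and 530 and 501 CPM in E6.5 Epi (adjusted p = 0.113). None of 18 matrix genes was called.

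Of the 13 lateral plate and cardiac mesoderm genes within the rule only Isl1 was called, beside 1.1% of all genes. Isl1, Hand1 and Foxf1 were among 6 of the 13 that met the rule through the posterior libraries alone. Those 6 had to be higher there. Isl1, a LIM homeobox factor of cardiac progenitors, had 13.9 and 18.8 CPM in E7.5 P and 0.226 and 0.880 CPM in E6.5 Epi (log2 fold change 4.82 ± 0.99, adjusted p = 0.0288). Hand1, of extra-embryonic and lateral mesoderm, had 3.68 and 40.05 CPM in E7.5 P and 0.566 and 0.489 CPM in E6.5 Epi (adjusted p = 0.113). Foxf1 had 7.79 and 14.6 CPM in E7.5 P and no read in E6.5 Epi (adjusted p = 0.302). Here replicate 2 was the higher of the posterior libraries, the reverse of Cdx1, Msgn1 and Aldh1a2. Of 11 neural genes Otx2 and Pou3f1 were called lower.

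Signalling genes were examined by role. Among 26 Wnt ligands, receptors and antagonists, 5 were called higher and 1 lower, beside 0.716% and 0.387% of all genes. Of the 5, 3 met the count rule through the posterior libraries alone, and the fall met it through the epiblast libraries alone. Those genes had to differ in that direction. The rises were the ligands Wnt3a, Wnt5a and Wnt6, the receptor Fzd1 and the enhancer Rspo3, and the fall was the antagonist Sfrp5. Wnt2, a ligand that was not on the list, was also called higher, at 18.4 and 19.3 CPM in E7.5 P and 1.36 and 0.196 CPM in E6.5 Epi (log2 fold change 4.61 ± 0.94, adjusted p = 0.0296). Wnt6 had 3.17 and 2.87 CPM in E7.5 P and 0.113 and 0.293 CPM in E6.5 Epi. Wnt3, the ligand that starts the streak, had 4.80 and 10.2 CPM in E7.5 P and 11.3 and 23.1 CPM in E6.5 Epi and was not called (adjusted p = 0.777). Of 15 Wnt target genes, 4 were called higher (Sp8, Msgn1, Cdx2 and Notum), and the median log2 fold change was 1.79. Msgn1 and Notum met the count rule through the posterior libraries alone, so they had to be higher there. Notum, a secreted feedback inhibitor, had 3.60 and 1.44 CPM in E7.5 P and no read in E6.5 Epi, at least 17.4-fold higher. Axin2, Sp5 and Lef1 were not called, with log2 fold changes of 1.56 ± 0.71, 0.93 ± 0.88 and 1.79 ± 0.57.

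Nodal pathway genes yielded 1 call among 17, beside 1.1% of all genes. Gdf3, a ligand related to Nodal, had 0.3425 and 0.391 CPM in E7.5 P and 14.04 and 20.4 CPM in E6.5 Epi (log2 fold change -5.52 ± 1.28, adjusted p = 0.0478). It met the count rule through the epiblast libraries alone, so it had to be lower in E7.5 P. Nodal itself had 6.51 and 8.22 CPM in E7.5 P and 34.5 and 48.7 CPM in E6.5 Epi (adjusted p = 0.145), and its co-receptor Tdgf1 had 2.65 and 48.4 CPM in E7.5 P and 471 and 328 CPM in E6.5 Epi (adjusted p = 0.287). For both the groups did not overlap, and the 2 posterior libraries differed widely for Tdgf1. Of 19 BMP genes the inhibitory Smad7 alone was called, and it was lower, at 1.97 and 1.04 CPM in E7.5 P and 8.72 and 15.55 CPM in E6.5 Epi. The ligand Bmp4 had 11.2 and 22.4 CPM in E7.5 P and 1.36 and 4.01 CPM in E6.5 Epi (adjusted p = 0.122). Of 19 FGF genes, the receptor Fgfr1 was called higher, with a log2 fold change of 1.52 ± 0.35 (adjusted p = 0.0472), and Fgf5 lower; Fgf3 and Fgf4 were not called.

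In the retinoic acid list 3 of 12 genes were called higher, beside 0.716% of all genes. Of these, Aldh1a2 met the count rule through the posterior libraries alone, so it had to be higher there. Aldh1a2, the enzyme that makes retinoic acid in trunk mesoderm (chr9:71215789-71296243), had 180.5 and 7.96 CPM in E7.5 P and 0.453 and 0.0978 CPM in E6.5 Epi (log2 fold change 8.42 ± 1.74, adjusted p = 0.0472). That call was lost with total counts, with the filterByExpr limit, in the fit of the compared libraries alone, and without E7.5 P replicate 1 or either E6.5 Epi library. Its posterior replicates differed far more than those of Crabp1, a binding protein of retinoic acid, at 61.6 and 64.8 CPM in E7.5 P and 7.36 and 5.18 CPM in E6.5 Epi. The log2 fold change of Crabp1 was 3.33 ± 0.49 (adjusted p = 0.00472). Of 11 Notch genes, Hes7 alone was called, and it met the count rule through the posterior libraries alone.

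The cell cycle, p53 and imprinted lists gave 1 call each (5%, 11.1% and 6.25% of their genes within the rule), beside 1.1% of all genes. The glycolysis and immediate early lists gave none. Among 20 cell cycle genes Ccnd2 was the only call, and among 9 targets of p53 it was Cdkn1a, the cell cycle inhibitor p21, at 58.0 and 40.2 CPM in E7.5 P and 6.11 and 9.88 CPM in E6.5 Epi (log2 fold change 2.61 ± 0.43, adjusted p = 0.00853). Mdm2, Bax and Ccng1 of that list had log2 fold changes of -0.44 ± 0.28, -0.61 ± 0.32 and -0.59 ± 0.29. None of 17 glycolysis genes was called, and their summed level was 25680 and 74760 CPM in E7.5 P and 41160 and 40060 CPM in E6.5 Epi, so that the posterior replicates lay on both sides of the epiblast. Among 16 listed imprinted genes Phlda2 was called higher; H19, Igf2 and Igf2r had log2 fold changes of 0.27 ± 1.01, 0.51 ± 0.51 and 0.03 ± 0.53. Outside the list, the imprinted genes Slc38a4, an amino acid transporter, and Slc22a18, a neighbour of Phlda2, were called higher too. Slc38a4 had 132 and 91.45 CPM in E7.5 P and 30.3 and 20.7 CPM in E6.5 Epi (log2 fold change 2.13 ± 0.38, adjusted p = 0.0138). Slc22a18 had 10.1 and 8.09 CPM in E7.5 P and 2.26 and 2.05 CPM in E6.5 Epi (adjusted p = 0.0478), and its call was lost with total counts and with the filterByExpr limit. None of 8 immediate early genes was called, with Jun at 0.03 ± 0.77.

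**Figure D4:**
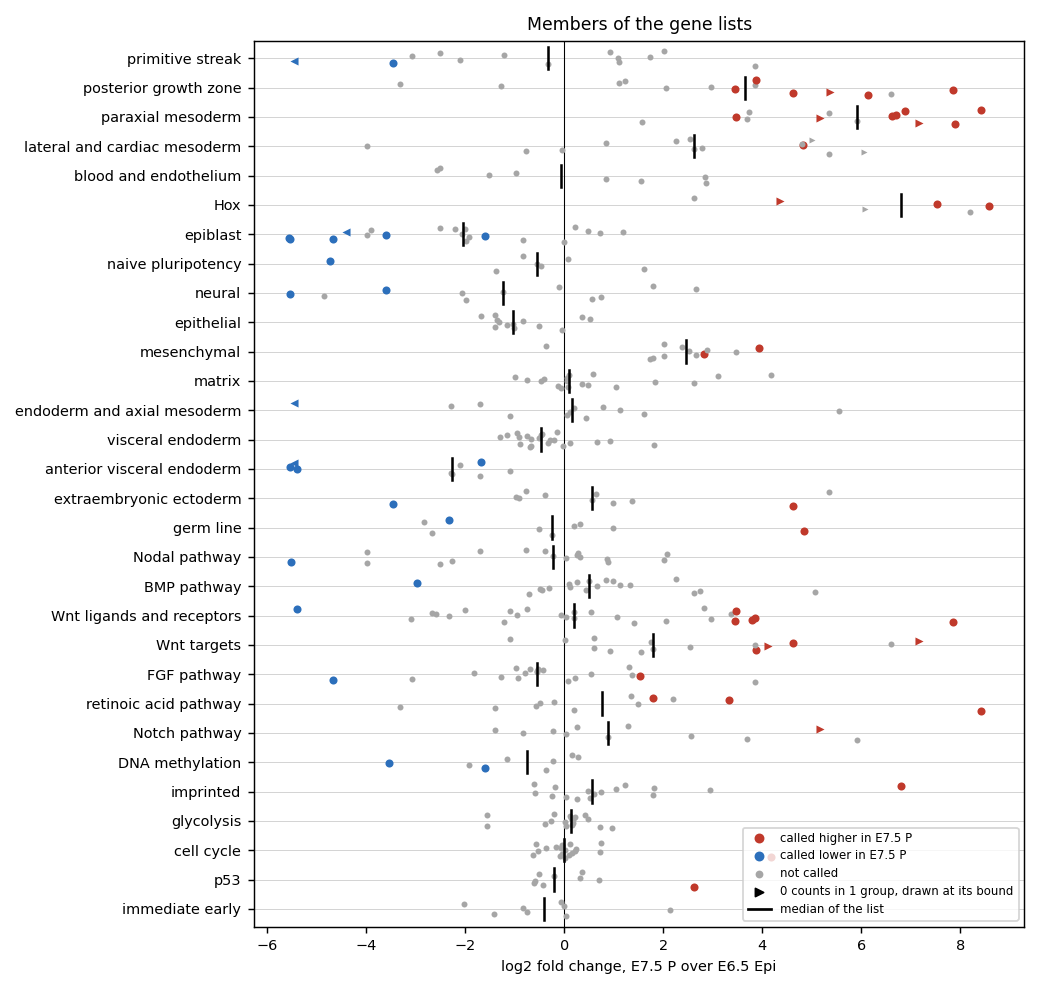
Each row is a gene list and each point 1 of its genes within the count rule, at its log2 fold change of E7.5 P over E6.5 Epi; red and blue mark genes called higher and lower, triangles are genes with no read in 1 group drawn at their bound, and black bars are list medians with such genes at their bound. The posterior growth zone, paraxial and Hox medians lie at 3.65, 5.91 and 6.80, the epiblast and anterior visceral endoderm medians at -2.04 and -2.27, and the glycolysis and cell cycle medians at 0.14 and -0.01.

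The posterior region of E7.0 embryos gave a stage in between. Its libraries entered the fit but not the contrast. Of the 87 called rises, 64 had a mean log2 CPM at E7.0 nearer to E6.5 Epi and 23 nearer to E7.5 P, and of the 47 called falls 37 were nearer to E6.5 Epi and 10 to E7.5 P. T had 31.6 and 16.7 CPM in E6.5 Epi, 51.5 and 120 CPM in E7.0 P and 260.5 and 441.5 CPM in E7.5 P. Hoxb1 had 0.679 and 0.196 CPM in E6.5 Epi, 1.07 and 5 CPM in E7.0 P and 234 and 100.1 CPM in E7.5 P. Msgn1 had no read in E6.5 Epi, 0 and 0.250 CPM in E7.0 P and 33.2 and 6.001 CPM in E7.5 P. These genes had their highest libraries at the last stage.

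Eomes and Mixl1 were highest at E7.0. Eomes had 88.3 and 109 CPM in E6.5 Epi, 167 and 213 CPM in E7.0 P and 6.08 and 12.1 CPM in E7.5 P. Mixl1 had 207 and 151 CPM in E6.5 Epi, 698 and 398 CPM in E7.0 P and 161 and 123 CPM in E7.5 P. Otx2 had 190.3 and 197 CPM in E6.5 Epi, 160 and 140.4 CPM in E7.0 P and 4.71 and 3.52 CPM in E7.5 P, and Fgf5 had 269 and 216 CPM, 249 and 176 CPM and 5.22 and 14.1 CPM at these stages. Utf1 was already lower at E7.0, with 341 and 327 CPM in E6.5 Epi, 145 and 36.9 CPM in E7.0 P and 4.54 and 9.78 CPM in E7.5 P. These are levels without a test of their own.

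**Figure D5:**
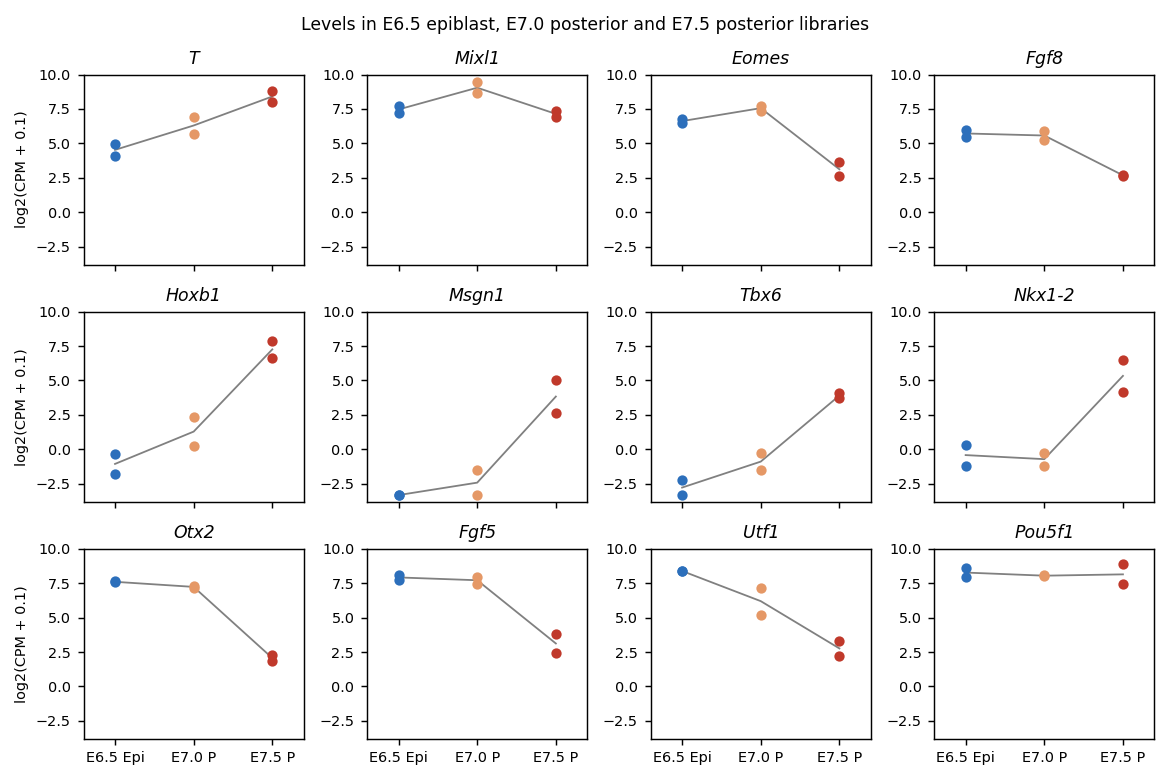
Points are single libraries and lines join the group means of log2(CPM + 0.1) on the vertical axis, for E6.5 Epi, E7.0 P and E7.5 P from left to right, in 12 genes. Hoxb1, Msgn1, Tbx6 and Nkx1-2 are highest at E7.5, Eomes and Mixl1 at E7.0, Otx2 and Fgf5 are lowest at E7.5, and Pou5f1 stays within 169 to 468 CPM.

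To ask which of these genes were also particular to the posterior region within its own stage, E7.5 P was tested against the mean of E7.5 A and E7.5 AM in the same fit. This contrast shares the 2 posterior libraries with the first one, so the values are given side by side. It called 26 genes higher in E7.5 P (0.214%) and 2 lower (0.0165%), 0.23% in all. The genes tested were those of the first comparison, whose count rule did not use A or AM. Genes with reads in A or AM but few in E7.5 P and E6.5 Epi were thus not tested. Genes could enter through the posterior libraries alone, as Hoxb1, Msgn1, Tbx6, Wnt3a, Wnt6, Cdx4 and Cdx1 did. The rule thus favoured calls of higher over lower. Of the 87 rises over E6.5 Epi 14 were also called higher here, and of the 47 falls 1 was also called lower. The count rested on the libraries and on the scaling: 3 genes were higher with scaling by total counts, 2 in a fit of these 3 groups alone, and 0 to 37 with 1 of the 6 libraries left out. Hoxb1 was higher, with 5.57 and 3.70 CPM in A and 13.5 and 8.76 CPM in AM beside its posterior levels (log2 fold change 4.54 ± 0.74, adjusted p = 0.0187). Msgn1 was at 0 counts in both A libraries and in 1 AM library, and at 0.0694 CPM in the other (adjusted p = 0.00890). Nkx1-2 had 10.6 and 9.80 CPM in A and 0.0694 and 0.0695 CPM in AM (log2 fold change 5.92 ± 0.71, adjusted p = 0.00294). Tbx6, Wnt3a, Rspo3, Wnt6, Cdx4, Cdkn1a, Alox15 and Cxx1c also passed it.

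Mixl1, Cdx1, Wnt8a and Fgf4 passed this regional test without passing that against the epiblast. Mixl1 had 0.653 and 1.204 CPM in A and 1.25 and 6.33 CPM in AM (log2 fold change 6.27 ± 0.93, adjusted p = 0.0181), while its log2 fold change over E6.5 Epi was -0.33 ± 0.96. Cdx1, Wnt8a and Fgf4 passed it at adjusted p-values of 0.0149, 0.0279 and 0.0277. Wnt8a had 36.5 and 19.3 CPM in E7.5 P, 6.38 and 14.6 CPM in A and 0.555 and 1.04 CPM in AM. Its level in A replicate 2 was thus near that of E7.5 P replicate 2. In the other direction, Otx2 was lower in E7.5 P than in A, at 138 and 92.8 CPM, and AM, at 97.2 and 58.0 CPM (log2 fold change -4.51 ± 0.67, adjusted p = 0.00944). Pdgfra, Meis2, Ccnd2 and Ifitm1 did not pass the regional test: Pdgfra had 29.8 and 22.01 CPM in A and 67.4 and 63.9 CPM in AM, and Ifitm1 had 133 and 121 CPM in A and 276.5 and 275 CPM in AM. Nor did Sp8, Cdx2, Wnt5a, Hoxb2, Hoxb3, Hes7, Foxc1, Foxc2 and Aldh1a2 pass the regional test. Sp8 had 126 and 48.9 CPM in E7.5 P, 83.6 and 48.8 CPM in A and 18.4 and 9.31 CPM in AM. Utf1, Fgf5 and Dppa5a did not pass it either, with log2 fold changes of -1.56 ± 0.59, -1.20 ± 0.68 and -0.52 ± 0.47.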

How the data were processed

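PolyA RNA of dissected ICR mouse embryos was sequenced from Nextera XT libraries, per the labels' protocols. The authors deposited a table of whole-number read counts per gene and library, not normalized. TopHat2 2.0.9, BWA, CASAVA 1.8 and the build mm10 are listed, with no roles, per the submitters' processing notes. How reads were counted, on which annotation and with which strand setting is not given in the sources used here. Reads of overlapping or antisense genes and near-identical copies therefore could not be told apart. Columns were matched to samples by name; 6 columns that could not be matched were not used.

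The 18 embryo libraries (9 groups of 2) were fitted together with edgeR 4.0.16 (R 4.3.3, limma 3.58.1) on the 12153 genes with at least 10 counts in 2 of the 4 compared libraries, scaled by the trimmed mean of M values, with a robust quasi-likelihood F-test and Benjamini-Hochberg adjustment; a standard error is the log2 fold change divided by the square root of F. The scripts were tested on simulated data. Means of log2 CPM used a prior count of 2. A gene with no read in 1 group has a bound from 3 counts over that group, and with 1 to 3 reads a ratio with an exact 95% interval, both covering counting error only. Rn45s, a ribosomal RNA entry, took 1.38% and 3.27% of the counts in E7.5 P and 1.20% and 4.32% in E6.5 Epi. Log2 CPM of the replicates correlated across genes at r = 0.939 in E7.5 P and 0.972 in E6.5 Epi, and replicates differed by more than sampling noise.

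Genes named were the 12 largest called rises and 12 largest called falls with a mean log2 CPM of at least 3, and from each of 31 lists up to 4 called members, 2 of the other direction and the first 3 that did not pass, with the Y-linked genes and Xist as a check; Wnt2, Slc38a4, Slc22a18, Lfng, Meox1, Tcf15, Cdx4, Foxc1, Foxc2, Foxd3, Fzd1, Hoxa3, Hoxa5, Hoxb4, Elf5 and Tpbpa were added after their values were seen. Some genes are not reported here by name and are not drawn in the plots of single genes. The comparison, the lists and the tests were chosen with earlier results of these data known. Gene positions and promoter windows are from RefSeq on GRCm38.p6. Alternatives tried were DESeq2 1.42.0, its size factors, total counts, 3 other count limits, fits restricted to the libraries being compared, a term for the replicate number, and fits that dropped 1 library at a time.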

Additional observations from a re-analysis of the deposited data

How the results depend on the processing

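None of the 134 genes called between E7.5 P and E6.5 Epi changed direction in any of the 8 alternatives that kept every library or the 4 that left 1 out. Of these calls, 73 (54 higher and 19 lower) held in all 8, and 1, Dppa5a, in all 4, where the counts ran from 0 to 43 higher and from 2 to 15 lower, with 758 to 1298 genes at an unadjusted p under 0.05. DESeq2 called 289 higher and 163 lower, a test without a count limit 355 and 181, a fit of the compared groups alone 304 and 156, and scaling by total counts 72 and 28. Of the calls 64.9% were rises, 72% with total counts, which moved the median of all genes by 0.0626 (log2). Against A and AM, DESeq2 called 71 higher and 21 lower, no count limit 221 and 43, total counts 3 higher, and the compared groups alone 2 and 1; the lower count was 4 with the filterByExpr limit and 1 with a limit of 20 counts. Leaving out a library gave 0 to 37 higher and 0 to 5 lower. The cause of these shifts was not tested.

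With the replicate number as a replicate block, 143 genes were higher and 88 lower than in E6.5 Epi, including all 87 and 47, and 34 higher and 6 lower than in A and AM. Same-numbered libraries of E7.5 P and E6.5 Epi deviated together with r = 0.273, but over the 36 pairs of groups r ran from -0.076 to 0.649, so the numbers were not taken to pair the libraries. Genes near the limit of 10 counts are the least precise, since a few reads move their values.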

Other observations

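Outside the lists, several called genes share a known role or partner; they were picked after their values were seen, and no group of them was tested. Besides Meis2, the homeobox genes Meis1 and Pknox2, whose proteins bind DNA together with Hox proteins, were higher in E7.5 P. Meis1 had 22.4 and 13.05 CPM in E7.5 P and 0.453 and 0.978 CPM in E6.5 Epi, a log2 fold change of 4.60 ± 0.72 (edgeR adjusted p = 0.00588). Pknox2 had 42.9 and 20.7 CPM in E7.5 P and 0.679 and 0.978 CPM in E6.5 Epi (log2 fold change 5.24 ± 0.91, adjusted p = 0.0125). Gbx2, a homeobox gene best known from the midbrain-hindbrain border, had 53 and 17.7 CPM in E7.5 P and 0 and 0.391 CPM in E6.5 Epi (log2 fold change 7.35 ± 1.32, adjusted p = 0.0156). It met the count rule through the posterior libraries alone, so it had to be higher there. Apela, which encodes the ligand Elabela of the receptor Aplnr, was higher together with its receptor, at 40.6 and 21.7 CPM in E7.5 P and 3.74 and 4.89 CPM in E6.5 Epi (adjusted p = 0.0472). Prtg, an adhesion protein of the immunoglobulin family named protogenin, had 1030 and 697 CPM in E7.5 P and 79.4 and 72.5 CPM in E6.5 Epi (log2 fold change 3.51 ± 0.46, adjusted p = 0.0041).

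Among the falls, Pmepa1, which like Skil and Smad7 encodes an inhibitor of TGF-beta family signals, had 0.257 and 0.261 CPM in E7.5 P and 7.36 and 9.49 CPM in E6.5 Epi (log2 fold change -4.97 ± 1.07, adjusted p = 0.0352). Dppa4, a chromatin protein of pluripotent cells, had no read in E7.5 P and 25.7 and 28.3 CPM in E6.5 Epi, at least 175-fold lower (adjusted p = 0.0207). Both Pmepa1 and Dppa4 met the count rule through the epiblast libraries alone, so they had to be lower in E7.5 P. Tmsb4x, an actin-binding peptide gene, and B2m, the light chain of MHC class I, were also called higher. Tmsb4x had 160 and 159 CPM in E7.5 P and 32.5 and 32.1 CPM in E6.5 Epi, and B2m had 38.01 and 27.1 CPM in E7.5 P and 11.4 and 11.5 CPM in E6.5 Epi.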
